A study of Mus musculus with 98 samples.

Results

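CapFb1c was a subtype of capsular fibroblasts of the mouse thymus, defined here as the cells that carried that name in the annotation the authors deposited with their single-cell data. It held 1227 of the 36208 nonepithelial thymic stroma (NETS) cells of the age series, which the annotation divided into 19 subtypes. Its nearest named relatives were CapFb1a with 2378 cells and CapFb1b with 3603 cells. The annotation came from the authors' clustering of these same cells, so every difference in level between CapFb1c and another subtype is given as a description with no test, whereas ages and genotypes were compared over libraries.

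The age series held Ter119-CD45-EpCAM- cells of wild-type C57BL/6 mice in 8 libraries, with a pair of libraries for embryonic day E16.5, for birth (P0) and for 4 weeks of age (W4), and a single library for E12.5 and another for E13.5. Thymi of several embryos were pooled at E12.5 and E13.5. A second single-cell set held Ter119-CD45- cells of newborn mice, with 3 libraries labelled Tbx1+/-Crkl+/- and 3 of wild-type littermates. The Tbx1 allele was a LacZ insertion and the Crkl null allele had been made with Meox2-Cre, which was then bred out, so both genes were heterozygous in every cell rather than in fibroblasts alone. A bulk RNA-seq set held wild-type gp38+CD26+ and gp38+CD26- cells sorted at P0 and at W4, with 6 libraries of each population at each age. Podoplanin (gp38, encoded by Pdpn) marks thymic fibroblasts, and CD26 is the product of Dpp4. At E16.5, P0 and W4 the cells came from a pair of thymi per age, but nothing states that each library held a single thymus, so the p-values measure the spread between these libraries.

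Capsular fibroblasts form the connective tissue sheath of the thymus and derive largely from the neural crest. They secrete FGF and BMP ligands that act on the thymic epithelium beneath them, along with chemokines and the matrix of the capsule. Lipoprotein lipase (Lpl) releases fatty acids from circulating triglycerides, Cxcl13 is the chemokine that attracts cells with the receptor CXCR5, Fgf10 is a growth factor for epithelial progenitors, and Bmp4 is a ligand expressed in the thymic rudiment from its early development.

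The libraries of the age series held 1997 to 6587 cells and 28583048 to 93040640 unique molecular identifiers (UMIs). UMIs were summed over the CapFb1c cells of a library and given as counts per 1000000 UMIs of that sum (CPM). The sums ran from 107762 UMIs at E12.5, from 10 cells, to 4187367 UMIs in P0 replicate 2. A gene with no UMI could therefore still have been present at up to 27.8 CPM at E12.5 and 5.58 CPM at E13.5, where 3 counts are taken as the limit, and intervals and limits of this kind cover counting error only. The median CapFb1c cell had 15361 UMIs, against 12645 in CapFb1b and 12079 in CapFb1a. The 36208 cells carried 36053 distinct barcodes, so that some occurred in more than 1 library. Of the CapFb1c cells, 6 had such a barcode, with none called CapFb1c in both libraries.

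CapFb1c cells were scarce before E16.5 and made up a steady share of the stroma from E16.5 onwards. They were 0.501% of the NETS cells at E12.5 (10 cells; 95% exact Clopper-Pearson interval 0.24 to 0.919%) and 0.783% at E13.5 (44 cells; 0.569 to 1.05%). The share was 4.09% and 3.52% in the 2 libraries of E16.5, 4.58% and 4.53% at P0, and 3.98% and 3.95% at W4. Each of these 6 later libraries lay above both early ones. Both P0 libraries lay above those of E16.5 and W4, which overlapped. The share differed over the ages in edgeR's quasi-likelihood F test on cell counts of all subtypes (adjusted p = 0.000631, with 16 of 19 subtypes called). The early ages had a single library each, so the test takes their spread from the later ages. E16.5 was higher than E13.5 by 2.28 on the log2 scale, whereas the steps from E16.5 to P0 (0.26) and from P0 to W4 (-0.20) had unadjusted p of 0.211 and 0.321. Within CapFb1 the portion held by CapFb1c was 2.01% at E12.5, 4.56% at E13.5, 17.1 and 19.2% at E16.5, 20.2 and 21.2% at P0, and 24.7 and 30% at W4. The proportions of a sort are relative, so fewer cells of other subtypes and more CapFb1c cells cannot be told apart.

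**Figure D1:**
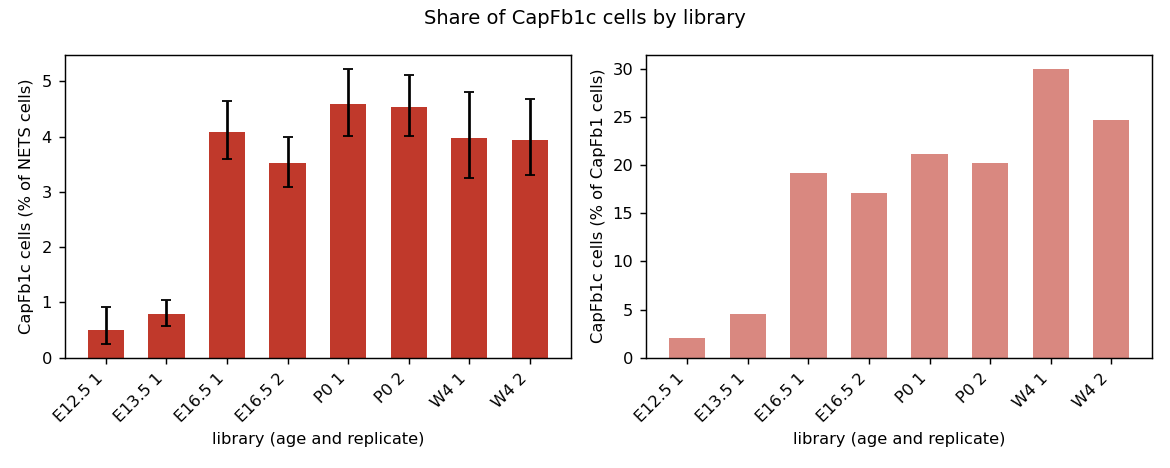
CapFb1c cells as a percentage of NETS cells (left; error bars are 95% exact intervals) and of CapFb1 cells (right) in each of the 8 libraries of the age series. The 2 early libraries lie below 1% of NETS cells and the 6 libraries of E16.5 to W4 between 3.52 and 4.58%, while the portion of CapFb1 is highest in W4 replicate 1, at 30%.

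The genes that go with the name of this subtype did not mark it equally at each age. Lpl stood at 0 CPM in the 10 cells of E12.5 and at 7.44 CPM, or 4 UMIs, at E13.5. It reached 1169 and 1104 CPM at E16.5, 1285 and 1482 CPM at P0, and 1736 and 1952 CPM at W4. CapFb1c was the highest of all subtypes in Lpl in each of the 4 libraries of E16.5 and P0, but was the 7th and 3rd highest in W4 replicates 1 and 2, below CapFb3. Over all 8 libraries its mean of 1092 ± 729 CPM (SD) was within the spread of CapFb3, at 1087 ± 942 CPM, and of CapFb1a, at 940 ± 772 CPM. By library, CapFb3 stood at 1045 and 882 CPM at E16.5 and at 740 and 1106 CPM at P0. CapFb1a stood at 693 and 732 CPM and then at 904 and 1192 CPM. CapFb1c thus had the highest Lpl at E16.5 and P0, by a margin that was not tested, and not at E12.5, E13.5 or W4. The subtype is therefore called here by its annotated name alone.

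Cxcl13 separated CapFb1c from its relatives more widely than the other markers did. It was not detected at E12.5, with 0 of 107762 UMIs (which allows up to 27.8 CPM), stood at 703 CPM at E13.5, and was 2535 and 2686 CPM at E16.5, 526 and 1723 CPM at P0, and 1235 and 754 CPM at W4. The mean of 1270 ± 968 CPM compares with 649 ± 710 in CapFb3, 547 ± 795 in CapFb2b, 113.5 ± 130.8 in CapFb1a and 20.2 ± 17.4 in CapFb1b. CapFb1c had the highest Cxcl13 of all subtypes in 6 of 8 libraries, one of them W4 replicate 1, where a single cell held 1300 of the 1955 Cxcl13 UMIs. At W4 its mean of 994 ± 340 CPM was the third highest, behind CapFb2b and mesothelium (Mes), and the libraries of these subtypes overlapped.

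Fgf10 and Bmp4 were less particular in level. Fgf10 was 74.2 CPM at E12.5, 107.9 at E13.5, 169 and 165.1 at E16.5, 143.9 and 145 at P0, and 166 and 185.2 at W4, the highest of all subtypes in 7 of 8 libraries. Its mean of 144.5 ± 36.7 CPM lay within the spread of CapFb1b (106 ± 58.9) and CapFb1a (101.1 ± 47.6). Bmp4 was 65 CPM at E12.5, 124.6 at E13.5, 87.9 and 88 at E16.5, 94.6 and 86.5 at P0, and 256 and 207 at W4. In the mean over libraries CapFb1c had rank 3 for Bmp4, at 126 ± 68.3 CPM, next to 138 in CapFb1a and 132.01 in CapFb1b.

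**Figure D2:**
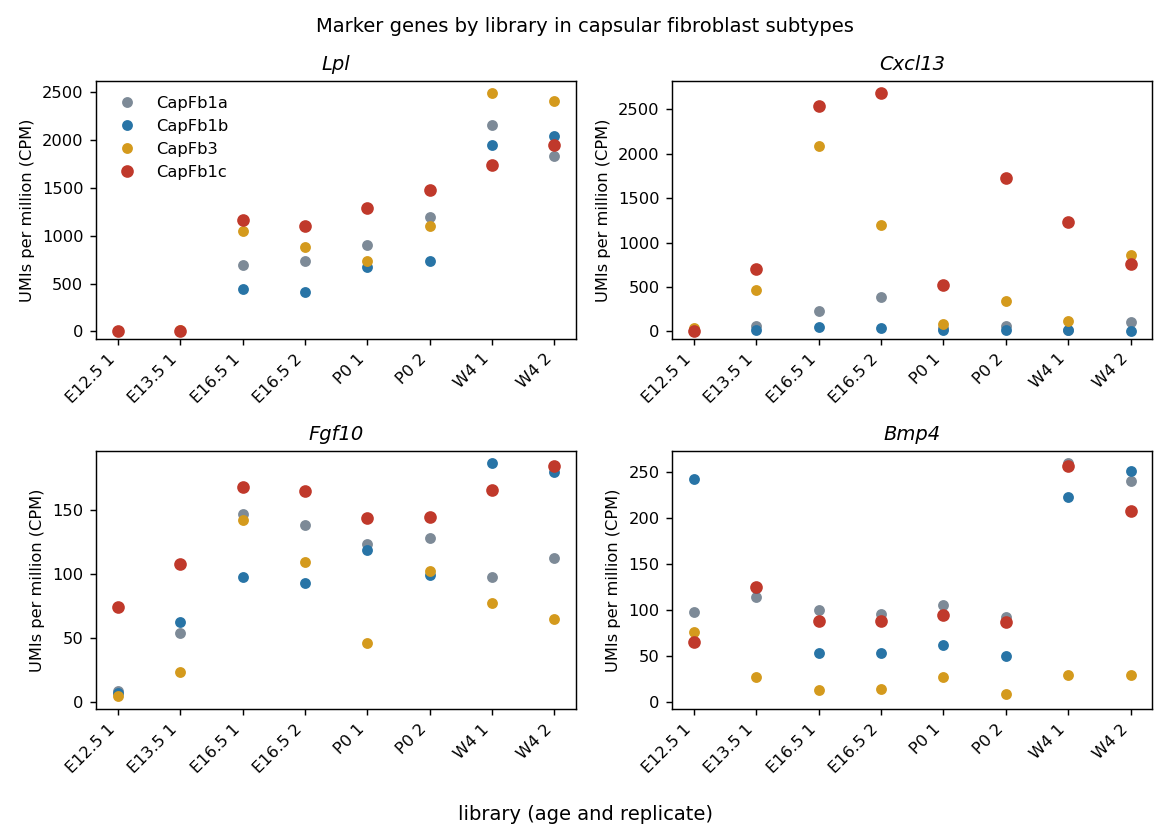
Lpl, Cxcl13, Fgf10 and Bmp4 in CPM in each library of the age series, for CapFb1c, CapFb1a, CapFb1b and CapFb3. Lpl of CapFb1c lies above the other subtypes shown at E16.5 and P0. At W4 it lies below all of them in replicate 1 and above CapFb1a alone in replicate 2. Cxcl13 of CapFb1b stays near 0 at each age, and Bmp4 of CapFb1c is highest in the 2 libraries of W4.

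Cell by cell, Cxcl13 set CapFb1c apart from CapFb1b more than Lpl did, and the gap in Lpl depended on age. The subtypes differ in their mix of ages, so shares of cells are given by library from E16.5 to W4. Lpl was detected in 99.5 to 100% of CapFb1c cells of these 6 libraries, in 92.2 to 100% of CapFb1b cells and in 91.2 to 100% of CapFb1a cells. With each cell thinned to 2000 UMIs, which removes the difference in depth, the shares for Lpl were 80.9 and 76.7% in CapFb1c against 51.2 and 46.8% in CapFb1b at E16.5, 86 and 90% against 65.5 and 70.2% at P0, and 94.1 and 96.1% against 92 and 95.9% at W4. The separation seen at E16.5 and P0 was thus not present at W4. Cxcl13 was detected in 18.6 to 66.9% of CapFb1c cells, 5.41 to 12.2% of CapFb1b cells and 6.82 to 27.2% of CapFb1a cells, or in 10.8 to 57.2, 1.76 to 3.90 and 1.14 to 17.5% after thinning. Over all ages, venous and lymphatic endothelium (EnVL), with a median of 11886 UMIs, had a UMI of Lpl in 23.9% and of Cxcl13 in 2.98% of cells, levels to be read as background.

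Fgf10 and Bmp4 were both found more often in CapFb1c than in CapFb1b at E16.5 and P0. Fgf10 was found in 69 to 85.6% of CapFb1c cells from E16.5 to W4, against 60.6 to 69.7% in CapFb1b and, over all ages, 2.44% in vascular smooth muscle (VSM; 0.244% thinned). After thinning, the shares for Fgf10 were 26.3 and 28% in CapFb1c against 16 and 17.4% in CapFb1b at E16.5, 27.9 and 25.9% against 19.3 and 17.5% at P0, and 19.6 and 26.4% against 28 and 26.1% at W4. Bmp4 was found in 59.7 and 61.6% of CapFb1c cells against 39.1 and 41.1% of CapFb1b cells at E16.5, in 64.7 and 58.3% against 42.5 and 38.8% at P0, and in 83.3 and 80.6% against 80.7 and 84.4% at W4. After thinning, these shares were 14.8 and 15.1% against 10.1% in both libraries at E16.5, 14 and 20.5% against 10.9 and 8.68% at P0, and 48 and 31% against 32.7 and 37.6% at W4. In CapFb1a cells of the same libraries Bmp4 was found in 51.5 to 87.5%. At least 3 of these 4 transcripts were seen together in 79.2 and 81% of CapFb1c cells at E16.5, 66.5 and 65.6% at P0, and 63.7 and 65.9% at W4. In CapFb1b the shares were 32.1 and 30.3%, then 32.2 and 27.9%, and then 58 and 60.6%, so the gap was narrow at W4. CapFb1a held 43.7 to 55.7% over these libraries. After thinning, the W4 shares were 14.71 and 14.73% in CapFb1c, 10 and 7.80% in CapFb1b and 13.6 and 9.09% in CapFb1a. CapFb3 carried Lpl together with Cxcl13 in 45.3 and 55.8% of cells at E16.5, against 66.5 and 65.9% in CapFb1c. At P0 these shares were 17.2 and 42.9% against 47 and 52.9%. At W4 they were 20.3 and 36.4% against 18.6 and 29.5%, or 11.4 and 19.4% against 9.80 and 17.1% after thinning. CapFb3 was thus the higher of the pair in each W4 library.

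Cxcl13 was unevenly spread within the subtype. Cells with at least 1 UMI of Cxcl13 were 66.9 and 65.9% of CapFb1c cells at E16.5, 47 and 52.9% at P0, and 18.6 and 29.5% at W4, whereas the sums per library did not fall in the same order. The tenth of cells with the most Cxcl13 held 47.4 and 54.4% of its UMIs at E16.5, 65.9 and 67.7% at P0, and 99.2 and 89.3% at W4. The median CapFb1c cell had 12 and 7 UMIs of Cxcl13 at E16.5, 0 and 1 at P0 and 0 in both W4 libraries, so the W4 level of this gene rests on a small number of cells.

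The genes with the highest ratios of CapFb1c to other subtypes included chemokine, matrix and developmental genes. Among 6363 genes of at least 20 CPM, 23 genes had the largest ratios of mean CPM either to the next subtype or to the higher of CapFb1a and CapFb1b. Cxcl5, a neutrophil-attracting chemokine, had the largest ratio to the next subtype, at 4.09 (199.6 ± 173.3 CPM against 48.8 ± 25.1 in CapFb1b). Without the 10-cell E12.5 library, where it was 585 CPM, its mean was 144.5 CPM and the ratio 2.96. Thbs1, which encodes the matrix protein thrombospondin 1, was 1.91 times the level of CapFb1b, and Il6 was 1.85 times that of EnVL. The acute phase gene Saa3 was at 26 ± 36.2 CPM, 12 times the level of CapFb1b and 2.15 times that of CapFb3, but ranged from 0 to 100.8 CPM over the libraries.

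The same list held Has1, which makes hyaluronan, and the genes Tnfaip6 and Ptx3, whose products bind hyaluronan or stabilise its matrix. Has1 was 4.19 times higher than in CapFb1b, but CapFb4 reached 183 ± 190 CPM against 191.4 ± 211 CPM in CapFb1c. Ccl7, a monocyte chemokine, was 4.16 times and Ptgs2, the inducible prostaglandin synthase, 3.45 times the level of CapFb1b. Of these, Ptgs2 and Ptx3 were not highest in CapFb1c, since CapFb4 held 42 ± 52.2 CPM of Ptgs2 against 23.6 ± 28.2 CPM and 116.5 ± 190.1 CPM of Ptx3 against 75.9 ± 73.7 CPM, and CapFb2a held 177.9 ± 204 CPM of Ccl7 against 270.2 ± 238 CPM, each within the spread. Lhx8, a LIM homeobox transcription factor, and Nxph1, which encodes a secreted neurexin ligand, were the members above both CapFb1a and CapFb1b in 8 of 8 libraries. Lhx8 was 130 CPM at E12.5, 66.9 at E13.5, 37.2 and 37.3 at E16.5, 26.6 and 32.7 at P0, and 29.1 and 34.3 at W4. Otor, Hoxa4, Cenpe, Hoxb5 and Rbm24 entered the list through the 10 cells of E12.5 alone, where they were at 854, 473, 288, 167.04 and 148.5 CPM. When libraries with fewer than 20 cells of a subtype were left out, 10 of the 15 genes of each ranking were still in it.

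**Figure D3:**
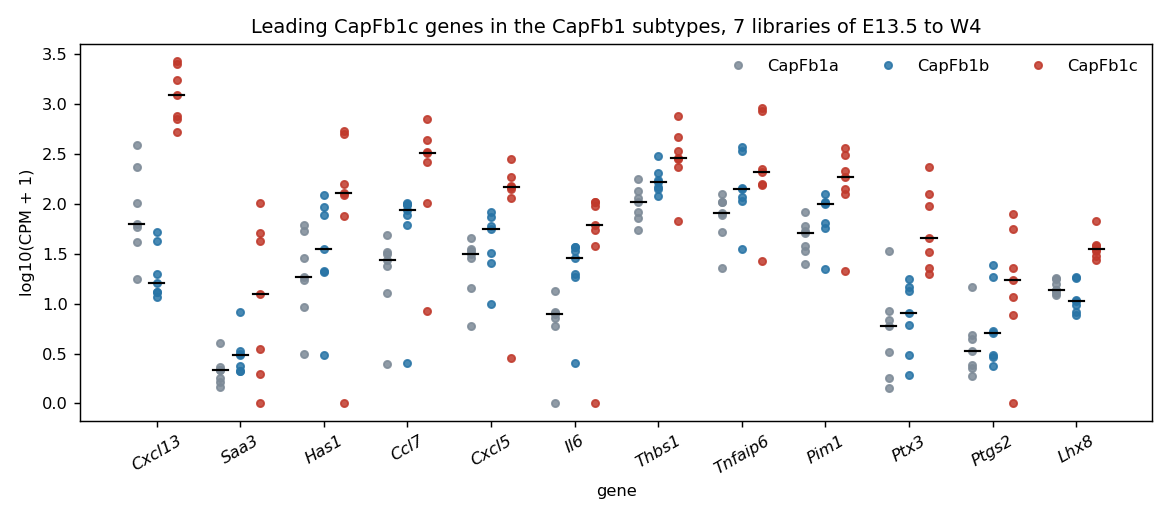
Levels of 12 leading CapFb1c genes in CapFb1a, CapFb1b and CapFb1c on a log10(CPM + 1) scale, 1 point per library of E13.5 to W4 (7 libraries) and a line at the median. CapFb1c has the highest median for each gene shown, with the widest gap to CapFb1b for Cxcl13. Its points overlap those of CapFb1a or CapFb1b for most of the genes, among them Thbs1, Tnfaip6 and Ptx3, and not for Cxcl13.

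CapFb1c cells carried fibroblast transcripts, with erythroid genes as the main transcripts of another lineage at W4. The 10 general fibroblast genes (Pdgfra, Col1a1, Dcn and others) summed to between 12463 and 53755 CPM over the 7 libraries of E13.5 to W4. Summed endothelial markers were 13.6 to 47 CPM, against 3394 to 7104 CPM in capillary endothelium. Mesothelial markers were 12.49 to 40.7 CPM, against 2161 to 6640 CPM in mesothelium. Mural markers were 175.9 to 285 CPM, against 3101 to 13566 CPM in pericytes. Glial markers were 5.95 to 21 CPM, and Sox10, Foxn1, Lrrn4, Gcm2 and Casr, which define glia, thymic epithelium, mesothelium and parathyroid, were at 0 in each library. The 4 parathyroid genes summed to 0 to 18.6 CPM, the highest being 10 UMIs of Chga, a gene of neuroendocrine granules, at E13.5. Erythroid genes summed to 7.44 to 1974 CPM over these libraries, with both W4 libraries above 1000 CPM, and leukocyte genes to 1.86 to 140 CPM. Erythroid transcripts were not particular to CapFb1c. In W4 replicates 1 and 2 they summed to 235 and 8963 CPM in CapFb1b and to 701 and 8413 CPM in CapFb1a.

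Gene expression within CapFb1c changed widely with age. Of 12185 genes tested over 7 libraries from E13.5 to W4, 6138 (50.4%) differed over the ages in edgeR's quasi-likelihood F test at a Benjamini-Hochberg adjusted p under 0.05. The 10 cells of E12.5 were below the minimum of 20 cells and are not in this fit. The 5 genes with the smallest p were Igfbp6, Inmt, Mgp, Gsn and Nnat. Mgp, an inhibitor of calcification, went from 26 CPM at E13.5 to 430 and 383 CPM at E16.5, 1023 and 981 CPM at P0, and 7703 and 8230 CPM at W4. Nnat, an imprinted gene of embryonic tissues, stood at 948 CPM at E13.5 and between 0 and 1.78 CPM in each later library.

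Between E16.5 and P0, 1825 of the 12185 genes (15%) were called, 1033 of them higher at P0 (8.48%) and 792 lower (6.5%). Thbs1 rose from 289 and 334 CPM to 462 and 750 CPM (log2 fold change 0.97 ± 0.17 SE, edgeR adjusted p = 0.00126). The metallothionein gene Mt2, whose product binds zinc and copper, rose from 140 and 172.04 to 396 and 499 CPM (1.53 ± 0.13, adjusted p = 1.05e-06). In neither gene did the libraries of the 2 ages overlap. Lpl (0.29 ± 0.10, adjusted p = 0.0737), Fgf10 and Bmp4 did not pass the test, although Lpl did without P0 replicate 1 (0.40, adjusted p = 0.00841), without a filter on low counts (0.28, adjusted p = 0.0414) and with thinned cells (0.34, adjusted p = 0.0482). Cxcl13 was lower at P0 by -1.21 ± 0.34 on the log2 scale (adjusted p = 0.0244), a call that was lost without E16.5 replicate 1 (adjusted p = 0.0947), without E16.5 replicate 2 (adjusted p = 0.131) and with DESeq2 (adjusted p = 0.507).

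Most chemokine and inflammatory genes tested were higher at P0 than at E16.5, Cxcl13 being the chemokine that was lower. Of 16 chemokine genes tested, 11 were higher and 1 lower at P0, where 8.48% of all genes were higher and 6.5% lower. The median log2 fold change of the chemokines was 0.87 against 0.0002 for all genes. Cxcl1 rose from 723 and 853 to 1984 and 2147 CPM (1.39 ± 0.11, edgeR adjusted p = 9.42e-07). Icam1, an adhesion molecule for leukocytes, rose from 125.4 and 118 to 324 and 383 CPM (1.54 ± 0.11, adjusted p = 2.11e-07). Both P0 libraries lay above both E16.5 libraries for each of these genes. Ccl2 and Cxcl10 were called with edgeR (1.25 ± 0.22 and 2.43 ± 0.25) and not with DESeq2 (adjusted p = 0.215 and 0.132). Of 15 complement and fibroblast inflammatory genes 10 were higher and none lower, with a median of 0.83. They included Il6, from 36.7 and 53.6 to 94 and 102.7 CPM (1.13 ± 0.19, adjusted p = 0.000956), and Has1, from 122.3 and 157.8 to 502 and 539 CPM (1.90 ± 0.16, adjusted p = 1.36e-06). Tnfaip6 followed Has1, from 152 and 221 to 845 and 912 CPM (2.24 ± 0.15, adjusted p = 1.54e-07), and so did Ptx3 (2.75 ± 0.28, adjusted p = 6.18e-06).

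Immediate early genes moved with this change. Of 29 immediate early and heat shock genes tested, 25 were higher at P0 and none was lower. Their median log2 fold change was 1.06. Of all genes, 8.48% were higher and 6.5% lower. Fos rose from 2244 and 2459 to 7185 and 5157 CPM (1.39 ± 0.13, edgeR adjusted p = 2.52e-06) and Egr1 from 899 and 923 to 2629 and 2186 CPM (1.40 ± 0.10, adjusted p = 2.5e-07). The summed list went from 18030 and 19819 CPM to 43075 and 38067 CPM in CapFb1c. In CapFb1b it went from 23568 and 24301 to 42076 and 33640 CPM. In CapFb1a it was lower at both ages and went from 9484 and 9186 to 19257 and 17519 CPM. Genes of this list are known to respond to the handling of cells as well as to signals in the tissue. Their part in the chemokine and inflammatory changes, or in the levels of the leading CapFb1c genes, was not tested.

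Cell cycle genes were mostly lower at P0, and fetal growth genes were called lower more often than higher. Of 14 fetal growth genes, 6 were lower, 1 higher and 7 did not pass the test, with a median of -0.36 on the log2 scale. Dlk1, an imprinted inhibitor of adipocyte differentiation, fell from 6259 and 6161 to 3202 and 3364 CPM (-0.92 ± 0.10, edgeR adjusted p = 2.17e-05). Cdkn1c, an imprinted inhibitor of the cell cycle, fell from 3188 and 3661 to 1500 and 1106 CPM (-1.39 ± 0.13, adjusted p = 2.59e-06). Of 25 cell cycle genes, 15 were lower and 1 higher, where 6.5% of all genes were lower and 8.48% higher. The cell cycle gene that rose was Cdkn1a, which encodes the inhibitor p21. It went from 7.9 and 4.92 to 52.8 and 65.7 CPM (3.21 ± 0.20, edgeR adjusted p = 9.28e-08). Stmn1, a microtubule regulator of dividing cells, fell from 132.5 and 123 to 57.2 and 35.1 CPM (-1.48 ± 0.15, adjusted p = 8.44e-06).

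Lipid genes were mixed between E16.5 and P0. Of 30 tested, 10 were higher and 3 lower at P0, where 8.48% of all genes were higher and 6.5% lower. Angptl4, a secreted inhibitor of lipoprotein lipase, rose from 68 CPM in both libraries to 154 and 166 CPM (1.24 ± 0.10, edgeR adjusted p = 1.06e-06), and Apoe, a lipoprotein component, from 347 and 305 to 870 and 942 CPM (1.48 ± 0.10, adjusted p = 1.54e-07). Fabp5, a fatty acid binding protein, fell from 478 and 485 to 143.3 and 118 CPM (-1.88 ± 0.12, adjusted p = 1.15e-07). The adipocyte transcription factor Pparg was low, at 11.2 to 20.4 CPM from E13.5 to P0, and Adipoq, Plin1 and Plin4, which define adipocytes, were too low to be tested.

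Between P0 and W4, 3899 of the 12185 genes (32.0%) were called, 1969 higher at W4 (16.2%) and 1930 lower (15.8%). Bmp4 rose 2.52-fold from 94.6 and 86.5 to 256 and 207 CPM (1.33 ± 0.11, edgeR adjusted p = 2.8e-07). Lpl rose 1.32-fold (0.40 ± 0.10, adjusted p = 0.00755), a call that was lost without W4 replicate 2 (0.29, adjusted p = 0.0832). Thbs1 fell to 231 and 280 CPM (-1.26 ± 0.18, adjusted p = 5.56e-05) and Mt2 to 183 and 171 CPM (-1.36 ± 0.13, adjusted p = 1.15e-06), back to near their E16.5 levels. Fgf10 did not pass the test (0.27 ± 0.10, adjusted p = 0.0605), but did with DESeq2 size factors in edgeR (0.31, adjusted p = 0.0322) and without W4 replicate 1 (0.37, adjusted p = 0.0351). Cxcl13 took either sign depending on the library left out: -0.83 without P0 replicate 1 (adjusted p = 0.000139) and 0.90 without P0 replicate 2 (adjusted p = 0.000381), against -0.21 with all libraries (adjusted p = 0.681). With cells thinned to 2000 UMIs it was called lower (-0.50, adjusted p = 0.0112).

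**Figure D4:**
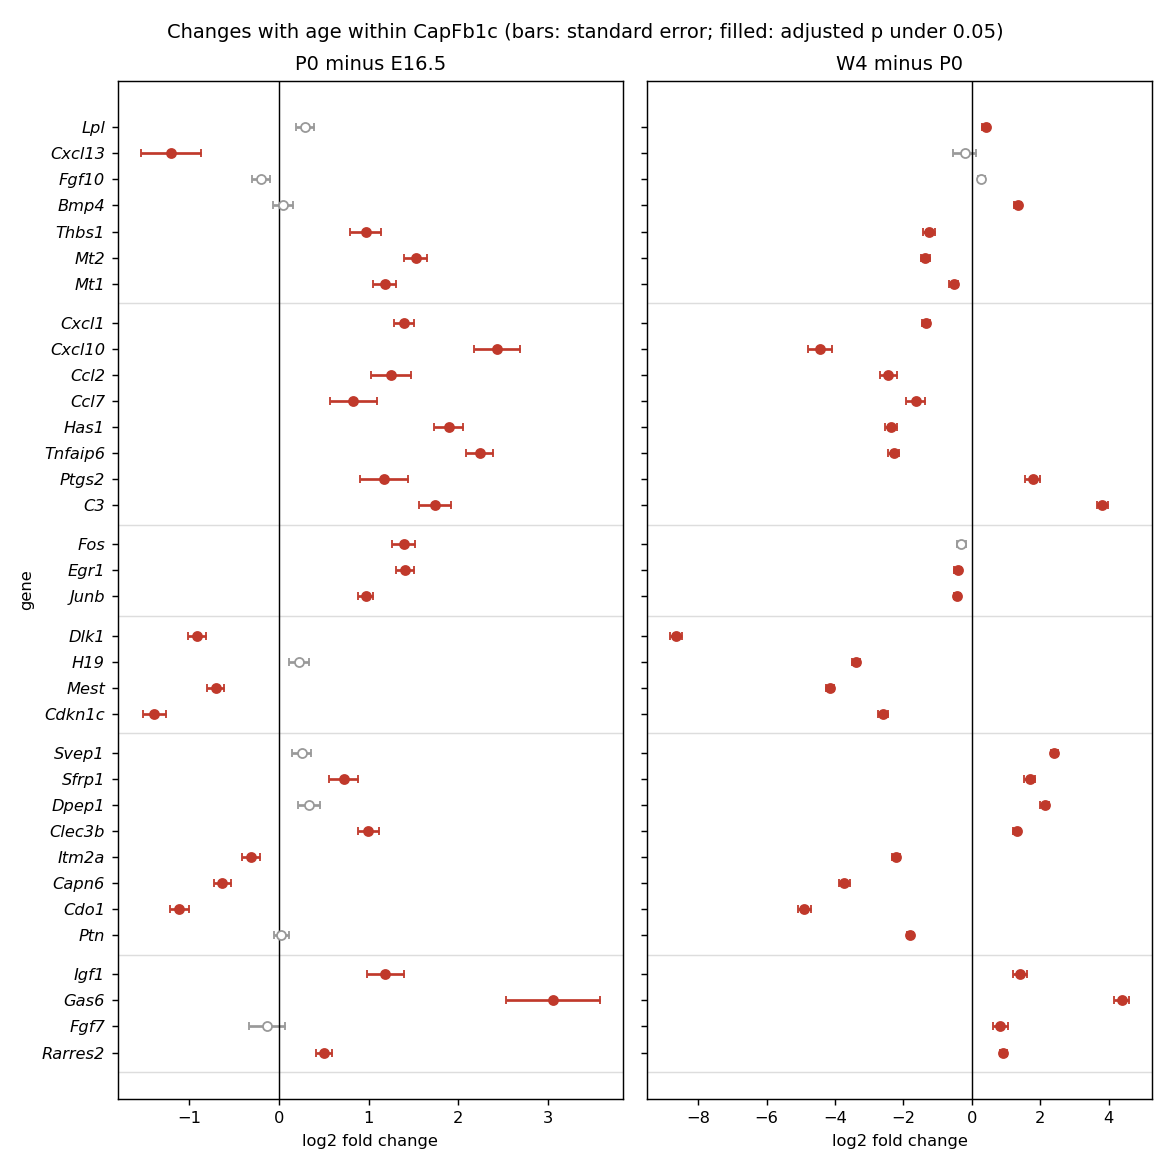
Log2 fold changes with standard errors within CapFb1c for P0 minus E16.5 (left) and W4 minus P0 (right), by gene group, with filled points for an edgeR adjusted p under 0.05. Thbs1, Mt2, Cxcl1, Has1 and Tnfaip6 are higher at P0 than at both E16.5 and W4, whereas C3 is higher at each later age and Dlk1 is 8.64 log2 units lower at W4 than at P0.

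The 8 genes listed for the CapFb1 family divided by age. The authors named Svep1, Sfrp1 and Dpep1 for CapFb1 at W4, and the others as top genes of CapFb1a or CapFb1b over all ages. The part of this choice in the division was not tested. Svep1, which encodes a large adhesion protein of the matrix, rose from 90.2 and 95.1 to 508 and 491 CPM (2.41 ± 0.10, edgeR adjusted p = 5.72e-11). The peptidase gene Dpep1 rose from 164.6 and 217 to 858 and 830 CPM (2.12 ± 0.12, adjusted p = 2.3e-09). Clec3b, which encodes tetranectin, and the Wnt antagonist gene Sfrp1 rose too, the former from 779 and 589 to 1787 and 1627 CPM. The other 4 fell: Itm2a from 3999 and 3619 to 772 and 881 CPM (-2.22 ± 0.10, adjusted p = 2.22e-10), Ptn from 6356 and 6190 to 1808 and 1842 CPM (-1.80 ± 0.09, adjusted p = 4.67e-10), Capn6 from 169 and 164 to 10.7 and 14.2 CPM and Cdo1 from 200 and 239 to 6.32 and 8.33 CPM. The ages did not overlap in any of the 8.

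Fetal growth genes were mostly lower at W4. Of 14 tested, 12 were lower and none higher, where 15.8% of all genes were lower and 16.2% higher. The median of the list was -2.59 on the log2 scale against -0.0185 for all genes. Dlk1 fell to 5.05 and 10.8 CPM (-8.64 ± 0.18, edgeR adjusted p = 3.01e-14). Mest fell from 1705 and 1489 to 97.3 and 85.8 CPM (-4.15 ± 0.12, adjusted p = 7.63e-13), and the long noncoding RNA H19 from 2625 and 2505 to 287 and 211 CPM (-3.39 ± 0.12, adjusted p = 1.22e-11). The angiotensin receptor gene Agtr2, at 319 and 318 CPM at P0, had 3.16 and 0.98 CPM left at W4.

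Antigen presentation genes were mostly higher at W4, whereas other lists were mixed. Of 15 complement and fibroblast inflammatory genes 7 were higher and 5 lower, and of 13 thrombospondin and matricellular genes 5 were higher and 6 lower. Of all genes, 16.2% were higher and 15.8% lower. C3, the central complement component, rose from 157 and 240 to 2693 and 2982 CPM (3.81 ± 0.17, edgeR adjusted p = 1.37e-10). Serping1, the inhibitor of the first complement component, rose from 568 and 525 to 2231 and 2180 CPM (3.99-fold, with an SE of 0.09 on the log2 scale, adjusted p = 2.22e-10). Of 17 antigen presentation and interferon genes, 11 were higher and none lower (median 1.27), among them H2-K1, from 55.2 and 47.1 to 559 and 623 CPM (3.52 ± 0.13, adjusted p = 1.22e-11). The largest rises among abundant genes included Inmt, a methyltransferase (6.18 ± 0.14), Pcolce2, an enhancer of collagen processing (6.14 ± 0.22), Cilp, a cartilage matrix protein (5.75 ± 0.18), and the matrix protease gene Mmp3 (5.56 ± 0.15), each at 1.91 to 6.45 CPM at P0 and 199.6 to 488 CPM at W4. Cpxm2, at 1.17 and 0 CPM at P0, reached 302 and 318 CPM at W4.

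Several inflammatory mediators that had risen at birth fell again. Has1 fell to 74.5 and 126 CPM (-2.36 ± 0.18, edgeR adjusted p = 6.86e-08), Tnfaip6 to 157.9 and 205 CPM (-2.28 ± 0.16, adjusted p = 2.93e-08), Ccl2 to 76.4 and 197 CPM (-2.44 ± 0.25, adjusted p = 1.76e-06) and Cxcl1 to 755 and 896 CPM (-1.34 ± 0.12, adjusted p = 3.37e-07). Sele, the adhesion molecule E-selectin, went from 105 and 269 to 9.47 and 5.39 CPM (-4.72 ± 0.47, adjusted p = 1.48e-06). Ptgs2 instead rose from 16.3 and 22 to 54.9 and 77.9 CPM (1.78 ± 0.22, adjusted p = 1.16e-05). Il6 did not pass the test with all libraries and did without W4 replicate 2 (-0.73, adjusted p = 0.0277). Among the immediate early and heat shock genes, 20 of 29 were lower and 5 higher (median -0.47), against 15.8 and 16.2% of all genes. The sum of this list at W4 was 32966 and 32027 CPM. It was 28100 and 28129 CPM in CapFb1b and 10562 and 12742 CPM in CapFb1a.

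Growth factors for epithelium and thymocytes were higher at W4 in most cases. Of 17 tested, 10 were higher and 2 lower, with a median of 1.33. Igf1 rose from 386 and 212 to 674 and 908 CPM (1.40 ± 0.20, edgeR adjusted p = 5.73e-05), and Gas6, a ligand of the TAM receptor kinases, from 13.4 and 5.02 to 195 and 181 CPM (4.38 ± 0.22, adjusted p = 6.22e-10). Fgf7, which CapFb1c carried at the highest mean of all subtypes, rose from 71.5 and 37.3 to 90.3 and 101.4 CPM (0.83 ± 0.21, adjusted p = 0.00655), a call that was lost without W4 replicate 2 (adjusted p = 0.0859). In the FGF list as a whole, 5 of 17 genes were higher and 1 was lower, against 16.2 and 15.8% of all genes.

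Of 26 BMP pathway genes, 9 were higher and 3 lower at W4, where 16.2% of all genes were higher and 15.8% lower. Fst, which encodes the activin and BMP antagonist follistatin, rose from 91.7 and 73.3 to 231 and 226 CPM (1.46 ± 0.13, edgeR adjusted p = 5.63e-07), and the BMP target gene Id2 from 55.8 and 43.9 to 246 and 212 CPM (2.19 ± 0.13, adjusted p = 6.39e-09). Of 19 Wnt pathway genes, 9 were higher and none was lower, with a median of 0.88. The ligand gene Wnt2 rose from 9.34 and 8.84 to 114.95 and 106 CPM (3.58 ± 0.17, adjusted p = 2.5e-10) and the antagonist gene Sfrp4 from 23.9 and 17.2 to 130 and 114 CPM (2.56 ± 0.16, adjusted p = 5.72e-09). Lipid genes were mixed again, with 9 higher and 7 lower of 30. Angptl4 fell to 33.5 and 36.8 CPM (-2.20 ± 0.13, adjusted p = 3.72e-09) while Apod rose from 154 and 166 to 1120 and 965 CPM (2.68 ± 0.11, adjusted p = 5.72e-11).

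Markers of other cells moved between P0 and W4 as well. All 5 erythroid genes tested were higher at W4, and the sum of the 7 listed was 102 and 100.8 CPM at P0 and 1974 and 1043 CPM at W4. Of 9 leukocyte genes tested 5 were higher, with sums of 46.4 and 25.6 CPM at P0 and 140 and 55.9 CPM at W4, and 3 of 4 epithelial genes were higher, with sums of 14.3 and 4.30 CPM at P0 and 73.9 and 22.5 CPM at W4. Foxn1 was at 0 throughout. Genes of CapFb4 and adventitial fibroblasts went from 996 and 744 to 2195 and 2062 CPM, with 5 of 7 higher, and genes of medullary fibroblasts from 1640 and 1873 to 3092 and 2971 CPM, with 4 of 7 higher. Of all genes, 16.2% were higher and 15.8% lower at W4. The part of these transcripts of other cells in the W4 changes was not tested. The leukocyte sums of CapFb1b, at 60.1 and 29.8 CPM at P0 and 119.2 and 73.1 CPM at W4, moved in the same direction.

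Whether CapFb1c changed with age differently from CapFb1b was tested as an interaction over their 4 P0 and W4 libraries, with E16.5 in the fit and the library as a block. Of 11912 genes, 532 (4.47%) were called, 164 with a more positive change in CapFb1c (1.38%) and 368 with a more negative one (3.09%). Of the 6 CapFb1c markers, 4 had a more negative change in CapFb1c. The labels and these markers came from the same counts, so their calls describe the labelled cells and are no independent support. Lpl went from 1285 and 1482 to 1736 and 1952 CPM in CapFb1c and from 678 and 731 to 1952 and 2041 CPM in CapFb1b, a difference of -1.08 ± 0.06 on the log2 scale (edgeR adjusted p = 1.1e-10). The ratio of CapFb1c to CapFb1b in Lpl was thus 2.62 and 2.65 at E16.5, 1.90 and 2.03 at P0, and 0.889 and 0.956 at W4. Bmp4 (-0.76 ± 0.12, adjusted p = 0.000432) and Thbs1 (-0.65 ± 0.10, adjusted p = 0.000356) were among them, although Bmp4 was not called with cells thinned to 2000 UMIs (adjusted p = 0.205). The fourth, Fgf10 (-0.47 ± 0.12, adjusted p = 0.0328), lost its call without P0 replicate 2 (adjusted p = 0.357), without W4 replicate 1 (adjusted p = 0.183) and with DESeq2 (adjusted p = 0.279). Cxcl13, 10.5 to 18.6 CPM in CapFb1b at P0 and W4, gave 0.15 (adjusted p = 0.878) with all libraries and was called without P0 replicate 2 (0.82, adjusted p = 0.0198).

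For several genes that CapFb1c carried at birth, the ratio of CapFb1c to CapFb1b was smaller at 4 weeks. Dpt, which encodes the matrix protein dermatopontin, was 241 and 169 CPM in CapFb1c and 14.7 and 9.89 CPM in CapFb1b at P0, and 978 and 1038 against 638 and 697 CPM at W4 (-3.46 ± 0.10, edgeR adjusted p = 1.3e-14). Ly6a, the stem cell antigen gene Sca-1, was 346 and 229 against 31.4 and 23.9 CPM at P0, and 1280 and 1252 against 828 and 947 CPM at W4 (-2.84 ± 0.12, adjusted p = 2.99e-12). Hsd11b1, which regenerates active glucocorticoid, was 141 and 250.5 against 33.7 and 38.5 CPM at P0, and 999 and 941 against 943 and 889 CPM at W4 (-2.33 ± 0.13, adjusted p = 2.32e-10). C3 was 157 and 240 against 27.4 and 44.9 CPM at P0 and 2693 and 2982 against 1974 and 2188 CPM at W4 (-2.01 ± 0.07, adjusted p = 4.45e-13). In each of these, CapFb1c was the higher subtype in all 4 libraries and its ratio to CapFb1b was smaller at W4. The difference in CPM itself was smaller at W4 for Hsd11b1 alone. CapFb1a was not in this test. Its means at P0 were 116 CPM for Dpt, 239 for Ly6a, 78.3 for Hsd11b1 and 47.8 for C3. At W4 they were 991, 1304, 826 and 2319 CPM. The ratio of CapFb1c to CapFb1a in Ly6a was 0.986 and 1.415 in the P0 libraries. In Ly6a CapFb1c thus stood apart from CapFb1b at birth and not from CapFb1a.

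Other genes crossed or moved apart. Ccl11, an eosinophil chemokine, was higher in CapFb1c at P0 (886 and 879 against 503 and 557 CPM) and lower at W4 (923 and 812 against 1296 and 1075 CPM; -1.18 ± 0.08, edgeR adjusted p = 2.04e-09). Cxcl14 went from 4.96 and 2.15 CPM at P0 to 69.5 and 43.1 CPM at W4 in CapFb1c, and from 2.84 and 2.42 to 325 and 266 CPM in CapFb1b (-2.79 ± 0.42, adjusted p = 0.000181), a call that was lost without P0 replicate 1 (adjusted p = 0.0687) and with thinned cells (adjusted p = 0.669). Cxcl10, an interferon-induced chemokine, was higher in CapFb1c at P0 (429 and 320 against 288 and 197 CPM) and lower at W4 (5.05 and 27.4 against 56.3 and 61.5 CPM; -2.41 ± 0.31, adjusted p = 2.94e-05). In the opposite direction, the collagen gene Col18a1 fell in CapFb1b from 147.8 and 140.3 to 68.6 and 62.9 CPM and was 34.7 and 40.6 CPM and then 41.7 and 35.3 CPM in CapFb1c (1.15 ± 0.17, adjusted p = 0.00014), a call that was lost with thinned cells (adjusted p = 0.0843). The protease inhibitor gene Timp3 was 30.9 and 49 CPM in CapFb1c at P0 and 203 and 157 CPM at W4, while CapFb1b held 145 and 239 CPM and then 241 and 224 CPM (1.88 ± 0.14, adjusted p = 2.66e-08). The potassium channel gene Kcnj8 fell in CapFb1b from 86.1 and 107.05 to 19.9 and 23.1 CPM and was 59 and 61.4 CPM and then 37.9 and 46.1 CPM in CapFb1c (1.66 ± 0.18, adjusted p = 3.55e-06). The call of Cxcl2 rested on W4 replicate 2, where it was 97 CPM in CapFb1c against 4.42 CPM in replicate 1 (2.95 ± 0.61 with all libraries, adjusted p = 0.0047; -1.24 without W4 replicate 2, adjusted p = 0.718), and it was not called with DESeq2 (adjusted p = 0.999).

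By list, negative calls outnumbered positive ones in several lists, as they did over all genes (3.09 against 1.38%). Chemokines gave 1 positive and 7 negative calls of 17, matricellular genes none and 8 of 13, collagens 1 and 7 of 23, general fibroblast genes 1 and 7 of 10, and lipid genes none and 9 of 30. Erythroid and leukocyte genes gave no call of 5 and 9. Fetal growth genes gave 4 positive and 2 negative calls of 14. H19 illustrates the former, at 287 and 211 CPM in CapFb1c and 38.3 and 109 CPM in CapFb1b at W4 from similar levels at P0 (1.62 ± 0.27, edgeR adjusted p = 0.000439), although it was not called with DESeq2 (adjusted p = 0.503).

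In newborn thymi, CapFb1c held 489 of 21451 cells. The libraries of Tbx1+/-Crkl+/- mice had 36, 93 and 59 of them and those of wild-type mice had 83, 65 and 153. The share of all sorted cells was 2.13, 1.75 and 1.80% in the former group and 3.49, 2.09 and 2.70% in the latter, so the groups overlapped (exact two-sided permutation test, p = 0.2). Of CapFb1 cells, however, CapFb1c made up 14.9, 14.5 and 15% in Tbx1+/-Crkl+/- and 19.8, 19 and 21.1% in wild type, with no overlap. The exact permutation test gave p = 0.1, the smallest that 3 against 3 libraries allow, and 0.2 after adjustment over the 3 denominators tried. Of fibroblasts the shares were 8.49, 7.49 and 6.58% against 9.63, 8.49 and 9.47% (exact permutation p = 0.2). These tests were chosen after the shares had been seen. This sort did not exclude EpCAM+ cells, so the shares cannot be set against those of the age series. The newborn cells were also fixed in RNAprotect for storage, whereas cells of the age series were kept on ice. The newborn libraries were shallower, and depth differed between the genotypes. Medians were 2551, 2391 and 2506 UMIs per cell in Tbx1+/-Crkl+/- and 2577, 3631 and 4686 in wild type, without overlap, and the sums of CapFb1c were 106587 to 309779 against 252056 to 1167523 UMIs. The part of depth in the differences between the genotypes was not tested beyond the thinned cells given here. The targeted genes did not check the labels, since Crkl was at 24.1, 23.6 and 26.9 CPM over all cells of the heterozygotes and 23, 25.1 and 18.4 CPM over those of wild type, and Tbx1 was below 2 CPM in each library. These 3′ counts need not change with either allele.

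Few genes passed the test between the genotypes within CapFb1c: edgeR called 0 of 4995 (0.0%), with 309 at an unadjusted p under 0.05 (6.19%), and DESeq2 called 1, Apoe. Lpl was 1201, 1704 and 719 CPM in the heterozygotes and 1226, 1854 and 1888 CPM in wild type (-0.46 ± 0.32, adjusted p = 0.896). Cxcl13 was 976, 1043 and 565 CPM against 1059, 1153 and 1841 CPM (-0.67 ± 0.31, adjusted p = 0.792). Each heterozygous library was below each wild-type library for Cxcl13, but the difference did not pass the test after adjustment for the genes tested. Fgf10, at 75.1, 64.6 and 60.5 CPM against 63.5, 121.8 and 100.2 CPM, and Bmp4, at 150.1, 154.9 and 40.3 CPM against 71.4, 70.4 and 107.9 CPM, overlapped between the genotypes.

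Apoe and Zbtb16 were the listed genes nearest to the threshold and were chosen after their values were seen. Apoe was 403, 562 and 471 CPM in the heterozygotes and 944, 1205 and 1964 CPM in wild type (-1.53 ± 0.32, edgeR adjusted p = 0.0729). Zbtb16, which encodes the transcription factor PLZF, was 93.8, 61.3 and 128 CPM against 23.8, 8.12 and 27.4 CPM (2.02 ± 0.43, adjusted p = 0.0729). Neither gene overlapped between the genotypes. Both were called without wild-type replicate 1 (edgeR adjusted p = 0.00162 and 0.0164) and without a filter on low counts (adjusted p = 0.00701 and 0.0132). With cells thinned to 2000 UMIs Apoe was at -1.34 (adjusted p = 0.381), and Zbtb16 was not among the genes tested. Apoe was also called with DESeq2 (-1.60, adjusted p = 0.00597), and Zbtb16 without wild-type replicate 3 (adjusted p = 0.0186) and with the replicate number as a block (adjusted p = 0.00453).

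The bulk libraries showed how far the CapFb1c markers followed CD26 among gp38+ fibroblasts of all subtypes. They held 8454267 to 15560221 counts in genes, apart from 1 gp38+CD26+ library of W4 with 25702 counts, which was left out. CapFb1c cells of the age series carried Dpp4 at 37.5 to 100.2 CPM from E16.5 to W4. The sort separated on Dpp4, with a lowest, median and highest level of 129, 247 and 464 CPM in gp38+CD26+ cells of P0 against 0, 7.44 and 25.9 CPM in gp38+CD26- cells. The mural gene Rgs5 was 533 CPM or more in each gp38+CD26- library of P0 and 21.6 CPM or less in each gp38+CD26+ one, so mural transcripts differ between the populations. In sorted bulk cells, fewer CapFb1c cells and less RNA per cell cannot be told apart. Nor can either be told from differences in other gp38+ subtypes that carry these markers.

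At P0, 950 of 14066 genes (6.75%) differed between the populations, 372 higher in gp38+CD26- cells (2.64%) and 578 lower (4.11%). Of the 6 CapFb1c markers, 5 were lower in gp38+CD26- cells and none higher. Cxcl13 had a lowest, median and highest level of 476, 648 and 1307 CPM in gp38+CD26+ cells and 2.25, 11.6 and 353 CPM in gp38+CD26- cells (-3.50 ± 0.96, edgeR adjusted p = 0.0294). Lpl was 569, 737 and 871 CPM against 266, 403 and 490 CPM (-0.94 ± 0.17, adjusted p = 0.000977). The populations did not overlap in either gene. Fgf10 (203 against 89.6 CPM in the median; -1.02 ± 0.29, adjusted p = 0.0328), Bmp4 (138 against 74.3 CPM; -1.06 ± 0.27, adjusted p = 0.0189) and Thbs1 (475 against 239 CPM; -1.16 ± 0.29, adjusted p = 0.0176) overlapped between the populations. With all 24 libraries in the fit, Lpl, Fgf10 and Bmp4 were no longer called (adjusted p = 0.0628, 0.063 and 0.074). Of 19 leading CapFb1c genes tested, 6 were lower in gp38+CD26- cells and none higher. They included Has1, at medians of 901 and 124.2 CPM (-2.50 ± 0.64, adjusted p = 0.019), Ccl7, at 304 and 106 CPM (-2.10 ± 0.42, adjusted p = 0.00357), and Tnfaip6, at 186 and 71.7 CPM (-1.63 ± 0.26, adjusted p = 0.000335).

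At W4, 1437 genes (10.2%) differed between the populations, 738 higher in gp38+CD26- cells (5.25%) and 699 lower (4.97%), but only 1 of the 6 markers was among them. This was Mt2, at medians of 4.57 and 0.757 CPM (-2.77 ± 0.58, edgeR adjusted p = 0.00226). Lpl had a lowest, median and highest level of 347, 475 and 655 CPM in gp38+CD26+ cells and 452, 511 and 617 CPM in gp38+CD26- cells (0.03, adjusted p = 0.97), with overlapping ranges. Cxcl13 was 29.1, 42.5 and 138 CPM against 59.6, 166 and 523 CPM (1.83 ± 0.96, edgeR adjusted p = 0.299). The mesothelial gene Msln was among the 5 lowest called changes, so it was higher in gp38+CD26+ cells. Mesothelium of the age series carried Cxcl13 at a mean of 1115 CPM at W4. The part of mesothelial cells in the bulk levels was not tested. Has1 was still lower in gp38+CD26- cells, at 7.61 against 126 CPM in the median (-3.36, adjusted p = 0.0016).

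From P0 to W4 the markers were compared within each population, and the difference between the populations was not tested. In gp38+CD26+ cells 2222 of 14066 genes (15.8%) were called, 1221 of them higher at W4 (8.68%) and 1001 lower (7.12%), and 3 of the 6 markers were lower. Thbs1 went from a median of 475 to 30.4 CPM (-4.10 ± 0.35, edgeR adjusted p = 2.38e-08), Fgf10 from 203 to 52.8 CPM (-1.90 ± 0.31, adjusted p = 0.000159) and Cxcl13 from 648 to 42.5 CPM (-3.46 ± 1.04, adjusted p = 0.0247). The call of Cxcl13 was lost without W4 replicate 1, 4, 5 or 6 (adjusted p = 0.0541 to 0.0631). In gp38+CD26- cells, where 2833 genes (20.1%) were called, 1622 higher (11.5%) and 1211 lower (8.61%), Thbs1 fell (-2.78 ± 0.31, adjusted p = 5.23e-07) and Lpl rose from 403 to 511 CPM in the median (0.57 ± 0.17, adjusted p = 0.0161), a call that was lost with all 24 libraries (adjusted p = 0.202). All 6 erythroid genes tested were higher at W4 in both populations, and their part in these changes was not tested.

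**Figure D5:**
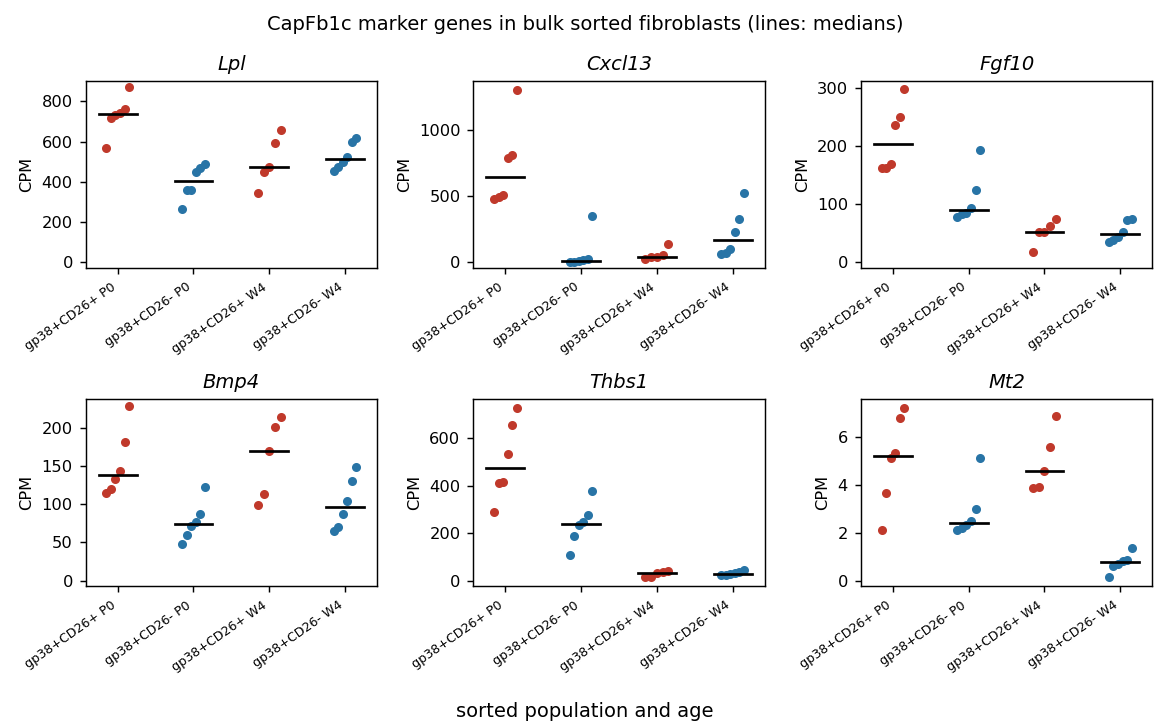
CapFb1c marker genes in bulk RNA-seq of sorted gp38+CD26+ and gp38+CD26- cells at P0 and W4, in CPM, 1 point per library and a line at the median. Cxcl13 has its highest median, 648 CPM, in the 6 gp38+CD26+ libraries of P0, which lie between 476 and 1307 CPM, and the medians of Thbs1 and Fgf10 are lower at W4 than at P0 in both populations.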

How the data were processed

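The authors sorted live stromal cells, prepared droplet 3′ libraries and processed the reads with Cell Ranger 3.1.0. The single-cell matrices they deposited hold raw UMI counts of cells kept after filters on detected genes, mitochondrial UMIs and predicted doublets. The paper also describes removing Ptprc-expressing clusters and other contaminants, such as epithelial clusters or those seen in a single replicate. The deposited metadata give the subtype of each cell. The bulk tables hold read counts per gene that the authors deposited; the submitters' processing notes name STAR 2.5.3a and HTSeq without roles, and builds mm10 and GRCh38. No coordinates were used.

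UMI counts were summed over CapFb1c cells of each library (at least 20 cells in a test, 5 for a level). Tests used edgeR 4.0.16 in R 4.3.3 with filterByExpr, TMM factors, the quasi-likelihood test and Benjamini-Hochberg adjustment at 0.05. Ages were fitted together over 7 libraries, and the comparison with CapFb1b took the library as a block. In the bulk data, libraries under 1000000 counts were left out. DESeq2 1.42.0 and the other alternatives are given in the closing section. Scripts were tested on simulated counts with genes changed 2-fold and 4-fold. Of these, 51% and 79% were recovered for W4 against P0, 28% and 83% for the genotypes and 14% and 50% for the bulk populations at P0. Unchanged genes that were called numbered 17, 5 and 1. For the difference from CapFb1b, 63% and 83% were recovered and 14 unchanged genes were called.

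Genes named were taken from the members of 28 gene lists, the 5 highest and 5 lowest called log2 fold changes (the 5 smallest p over ages) of at least 50 CPM, and the 15 highest ratios of mean CPM in CapFb1c to the next subtype or to CapFb1a and CapFb1b. The members and lists were chosen with earlier results of these data known. The replicate numbers of the labels did not pair the libraries (correlations of same-numbered deviations -0.007 to 0.053 in the age series and -0.326 to 0.134 in the newborn set).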

Additional observations from a re-analysis of the deposited data

Results flagged for a closer look

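In the bulk libraries, 5 of 44 checks, each of a gene in a group of libraries, found a single library far above the others. Chance alone gives about 1 in 20 for normally distributed values. Cxcl13 was 353 CPM in gp38+CD26- replicate 6 of P0, with the next library at 22.3 CPM, and 138 CPM in gp38+CD26+ replicate 3 of W4, with the next at 52.2 CPM. Ccl7 was 213.5 CPM in gp38+CD26+ replicate 1 of W4, with the next at 79.9 CPM. Dpp4 was 25.9 CPM in gp38+CD26- replicate 4 of P0, with the next at 9.16 CPM, and Mt2 was 5.14 CPM in gp38+CD26- replicate 3 of P0, with the next at 2.98 CPM.

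The change from P0 to W4 differed between CapFb1c and CapFb1b by the interaction test of edgeR for 17 of the genes described for that comparison. Both labels and the CapFb1c markers came from these same counts, so the calls describe the labelled cells. On the log2 scale the difference was negative for Dpt (-3.46), Ly6a (-2.84), Cxcl14 (-2.79), Cxcl10 (-2.41), Hsd11b1 (-2.33), C3 (-2.01), Postn (-1.39), Ccl11 (-1.18), Lpl (-1.08), Bmp4 (-0.76), Thbs1 (-0.65) and Fgf10 (-0.47). It was positive for Cxcl2 (2.95), Timp3 (1.88), Kcnj8 (1.66), H19 (1.62) and Col18a1 (1.15). Postn, which encodes the matricellular protein periostin, was 1934 and 1605 CPM in CapFb1c at P0 and 346 and 263 CPM at W4. In CapFb1b it was 659 and 592 and then 343 and 230.1 CPM. CapFb1a, which was not in the test, had means of 1603 CPM at P0 and 346 CPM at W4, near those of CapFb1c.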

How the results depend on the processing

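Counts of called genes depended on the tool and on depth. With DESeq2 they were 3138 over ages (6138 with edgeR), 498 for P0 against E16.5 (1825), 1582 for W4 against P0 (3899), 1 for genotype (0) and 1525 for the bulk populations at P0 (950). With cells thinned to 2000 UMIs the first 3 were 2094, 524 and 1215. For the difference between CapFb1c and CapFb1b, DESeq2 gave 82 positive and 181 negative calls and thinned cells 72 and 96 (edgeR 164 and 368). Leaving out a library gave 5052 to 6630, 643 to 2095, 2693 to 3940 and, for genotype, 0 to 10 calls, the lowest for P0 against E16.5 being without E16.5 replicate 1 and the highest for genotype without wild-type replicate 1. It gave 1147 to 1352 calls for bulk populations at W4 and 1796 to 2177 for gp38+CD26+ cells over age. Without a filter on low counts genotype had 10 calls, and with all 24 bulk libraries P0 had 558. Leaving out a library gave an adjusted p of 0.000269 to 0.00967 for the share of CapFb1c over ages. The rank of CapFb1c in Bmp4 was 3, but 2 with at least 20 cells and 1 by the thinned share of cells.

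Of the calls for P0 against E16.5, 56.6% were higher at P0 (1033 against 792), but 72.5% with DESeq2 (361 of 498) and 67% and 69% without E16.5 replicates 1 and 2 (431 against 212 and 459 against 206). Of the calls between CapFb1c and CapFb1b, 30.8% were positive, but 42.9% with thinned cells. With the replicate number as a block, P0 against E16.5 had 1958 calls (1823 in the same libraries without it), W4 against P0 had 3977 (3885) and genotype had 1, Zbtb16. The fit over those libraries without the block was added after seeing the data. The numbers did not pair the libraries.

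Some named genes changed sign, each without a call on the opposite side except where an adjusted p is given. For P0 against E16.5 Bmp4 ran from -0.012 without P0 replicate 1 to 0.10. For W4 against P0, Cxcl13 ran from -0.83 without P0 replicate 1 to 0.90 without P0 replicate 2 (edgeR adjusted p = 0.000381) and was 0.096 without W4 replicate 2, Il6 ran from -0.73 to 0.092 without W4 replicate 1, and Fgf10 was -0.043 in thinned cells. For the difference from CapFb1b, Cxcl13 was -0.44 thinned and ran from -0.25 without P0 replicate 1 to 0.82, with -0.018 without W4 replicate 1, and Cxcl2 ran from -1.24 without W4 replicate 2 to 4.27. For genotype, Bmp4 ran from -0.0094 without Tbx1+/-Crkl+/- replicate 2 to 0.76. For bulk W4, Lpl was -0.0095 with DESeq2 size factors in edgeR and -0.011 with DESeq2, and ran from -0.083 without gp38+CD26+ replicate 4 to 0.14, with -0.032 without replicate 1. Of 1099 values of named genes under the alternatives, 1045 kept direction and call, 24 lost and 16 gained a call, and 14 changed sign. The cause was not tested. The 1 value without a result was Zbtb16 in thinned cells. With 10 and 44 CapFb1c cells, E12.5 and E13.5 limit every statement on early levels.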

Other observations

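Of 9 laminin and basement membrane genes tested within CapFb1c, 5 were higher and none lower at P0 than at E16.5 (median log2 fold change 0.42), where 8.48% of all genes were higher, and 5 were higher and 1 lower at W4 than at P0 (median 0.66), where 16.2% were higher. Lama2, the laminin alpha 2 chain, was 159 and 139.4 CPM at E16.5, 257 and 268 CPM at P0 and 468 and 407 CPM at W4, with changes of 0.82 ± 0.10 (edgeR adjusted p = 6.23e-05) and 0.72 ± 0.10 (adjusted p = 5.46e-05). Nid1, which encodes nidogen 1, rose from 698 and 734 CPM at P0 to 1175 and 1112 CPM at W4 (0.66 ± 0.09, adjusted p = 5.42e-05). The libraries of the ages did not overlap in either gene. Collagens were mixed, with 4 higher and 2 lower of 23 at P0 and 9 higher and 3 lower at W4.

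General fibroblast genes were mostly higher at W4, with 8 higher and 1 lower of 10. Of all genes, 16.2% were higher and 15.8% lower. Dcn, the small proteoglycan decorin, rose from 8238 and 6933 to 20810 and 20325 CPM (1.42 ± 0.10, edgeR adjusted p = 1.99e-08), and the growth factor receptor gene Pdgfra from 208 and 205 to 407 and 404 CPM (0.96 ± 0.09, adjusted p = 1.18e-06). Postn fell instead (-2.56 ± 0.13, adjusted p = 4.31e-10). The heat shock gene Hspa1a went against most of its list at W4, from 157 and 152 to 1623 and 1532 CPM (3.33 ± 0.12, adjusted p = 1.22e-11).

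Cebpd, which encodes a transcription factor induced early in adipocyte differentiation and in inflammation, was 1.08 to 1.33 times its level in CapFb1b in the libraries of E16.5 to W4. It stood at 121 CPM at E12.5, 214 at E13.5, 2431 and 2533 at E16.5, 2680 and 2910 at P0, and 1922 and 1910 at W4. It fell from P0 to W4 by 0.56 on the log2 scale (SE 0.09, edgeR adjusted p = 0.000196). Metallothionein and glucocorticoid-responsive genes gave 5 higher and 1 lower call of 11 at P0, where 8.48% of all genes were higher and 6.5% lower, and 4 higher and 5 lower at W4, where 16.2% were higher and 15.8% lower.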
